A study of Brassica rapa subsp. pekinensis with 2 samples.

Results

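The candidate small RNAs of 23 and 24 nt in the anthers and vegetative organs of Chinese cabbage were described. They are the entries of the authors' small RNA table whose name starts with PC, and they are called members here. PC is the mark of a sequence assigned to no known miRNA precursor that mapped to the genome within a predicted hairpin. By the listed positions, 20 of the 263 members still overlap the precursor of a known name, 1 of them at the same position. This count can miss cases, since positions on the minus strand cannot be relied on to the base. By sequence, 5 members of 23 nt and 23 of 24 nt had a precursor that shares 40 bases with that of a known name. Taken by the PC mark and by length alone, 263 of the 1220 names were members, 52 of 23 nt and 211 of 24 nt, each with its own sequence. Small RNA was sequenced from the double haploid line ‘FT’, with 1 library for ‘Ant’, anthers of mixed developmental stages stripped from flower buds, and 1 library for ‘Mix’, the roots, stems and leaves of seedlings with 4 true leaves. The labels give vernalization at 4 °C for 20 days for both groups, and the methods of the study give it for ‘Ant’ only. Both libraries thus come from 1 genotype, each pools several stages or organs, and organ and developmental age cannot be told apart. The labels speak of 9 small RNA libraries and the methods of the study of 1 for each group, and these 2 were analysed here. Reads on the listed sequences, each counted once, summed to 1346716 in ‘Ant’ and 1393755 in ‘Mix’. With no replicate there was no replicate error for any value, so every test below compares 2 libraries and not the conditions. The 95% intervals given here hold counting error alone. Where a library held 0 reads, up to 3 remain possible, or 1.79e-04% of the reads over names in ‘Ant’ and 1.81e-04% in ‘Mix’.

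In plants, miRNAs are cut from the hairpin of a single transcript by Dicer-like 1, are mostly shorter than these members, often start with uracil, and guide Argonaute proteins to cut or repress messenger RNAs. A second class is made by Dicer-like 3 from double-stranded RNA, often transcribed from transposons and repeats. In Arabidopsis these longer small interfering RNAs (siRNAs) often start with adenine, join Argonaute 4 and its relatives, and guide DNA methylation. A precise miRNA hairpin gives a duplex in which each strand ends in a short 3′ overhang, whereas a long inverted repeat can be cut at many places. First base, duplex ends and hairpin shape are therefore the features described here, but the files hold no Dicer or Argonaute mutant, and which enzyme made a member was not tested. As a check on the organ, miR845, which is known from Arabidopsis pollen, had 11214 reads over 3 names in ‘Ant’ against 95 in ‘Mix’, where 2 of the names were at 0.

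The 2 most read hairpins are shown first, because they weigh most in the sums over members. The sequences are written 5′ to 3′ with T for U as in the authors' table, and positions are those of that table, whose genome build is not given in the sources used here. Positions on the minus strand cannot be relied on to the base: among precursors that overlap on the same strand and share at least 40 bases, the listed positions matched the sequences in 30 of 31 pairs on the plus strand but in 1 of 33 on the minus strand, with a median difference of 64 bases. The most read 24-nt hairpin was listed at A03:6745812-6746012 on the minus strand, and the most read 23-nt hairpin at A03:18886381-18886481 on the plus strand. In the hairpins the capitals mark the listed small RNAs, and in the small RNAs they mark bases 2 to 8, called the seed here. Pairing of members with targets was not tested.
Hairpin of PC-5p-1579_789 and PC-3p-2247_578: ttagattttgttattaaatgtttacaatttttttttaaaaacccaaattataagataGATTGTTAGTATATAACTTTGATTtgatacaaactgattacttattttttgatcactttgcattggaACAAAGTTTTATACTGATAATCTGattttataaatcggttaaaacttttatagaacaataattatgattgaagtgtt
Hairpin of PC-5p-377_3235: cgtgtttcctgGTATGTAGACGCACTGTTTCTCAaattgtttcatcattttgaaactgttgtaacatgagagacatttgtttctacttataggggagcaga
PC-5p-1579_789: gATTGTTAgtatataactttgatt
PC-3p-2247_578: aCAAAGTTttatactgataatctg
PC-5p-377_3235: gTATGTAGacgcactgtttctca

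Many members are alike in sequence, and the next sequences show how. Members were put in 1 group when they shared a stretch of 12 bases on either strand, directly or through others, and 166 of the 263 members fell in 41 groups of 2 or more, while 97 shared no such stretch. The largest group held 36 members, 4 of 23 nt and 32 of 24 nt, from 29 hairpins on 8 chromosomes. The members shown are some of those that hold the 9 bases TCTTATATT, in capitals below, or their reverse complement AATATAAGA, and the known name bra-MIR9563a-p5_1 is shown beside them. Over both strands these 9 bases were in 19 of the 263 members (7.22%) and in 42 of the 957 other names (4.39%). The 42 included 25 known names of 23 or 24 nt, a set in which the share was 24.5%, above that of the members. Among PC names of 21 nt the share was 0.769%. Both this stretch and the next were read off the members themselves, so that their shares are a description. PC-3p-96400_19 is the reverse complement of bra-MIR9563a-p5_1 over all its 24 bases.
PC-3p-101185_18: aagagacgagtTCTTATATTctgc
PC-3p-114708_16: aagagacagttTCTTATATTctgc
PC-3p-124277_15: aagagacggtTCTTATATTacgct
PC-3p-231633_8: aaaagactgtaTCTTATATTacgt
PC-3p-96400_19: agagacgggtTCTTATATTccgct
PC-5p-47478_40: aacggAATATAAGAaatcgtctct
PC-3p-173116_11: agcggAATATAAGAaactgtgtct
PC-5p-238851_8: aacgtAATATAAGAactcgtttct
PC-5p-1075783_3: cgAATATAAGAatccgtctctta
bra-MIR9563a-p5_1: agcggAATATAAGAacccgtctct

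In a smaller group of 7 members, whose reads lay mostly in ‘Ant’, 6 hold GGATAAATC or its reverse complement GATTTATCC, again in capitals. On either strand these 9 bases were in 8 of the 263 members (3.04%) and in 2 of the 957 other names (0.209%). The 6 members are given.
PC-5p-276233_7: aaacctaaactcttGGATAAATCt
PC-5p-370917_5: cttaaacccttGGATAAATCata
PC-5p-510791_4: aaaccctgaactcttGGATAAATC
PC-5p-518755_4: aaactttgaacccttGGATAAATC
PC-3p-1699323_2: agagtttatGATTTATCCaaaggt
PC-3p-2268943_2: atGATTTATCCaaaggttcaggct

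The members whose reads differed most between the libraries are shown next, with the seed in capitals. PC-3p-45661_42 and PC-5p-348025_6 are the arms of 1 hairpin.
PC-3p-52581_36: cATTCTCAattcctaatctagat
PC-3p-45661_42: aCGGAAGCataaaacagatcttt
PC-5p-348025_6: aGTATCTGttttatgcttccgca
PC-5p-19938_93: aTTGCCAAaacaaacatgaactt
PC-3p-323943_6: tTTATGTCacggaagagtagtgtt
PC-3p-70742_26: tTGGCAAGttgactttggctctgt
PC-5p-31341_61: aAGGACTTtacggaaacccaaacc
PC-5p-615496_4: aTATATGTatgtagttgtggagtc

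Only 14 seeds were shared by 2 or more members, 32 members in all, against 245 seeds over the 263 members. The most shared seed, GTTAAAA, belonged to 4 members. Most members thus had a seed that no other member had, and seeds were not counted within groups. The seed AGAGACG belonged to 3 members, all in the largest group. In the members shown of that group, TCTTATATT starts at a like distance from the 5′ end. So does AATATAAGA, apart from PC-5p-1075783_3. In the members shown of the GGATAAATC group, the shared bases start at different distances.

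The 24-nt members mostly started with adenine, and the 23-nt members did not. Adenine was the first base of 150 of the 211 24-nt members (71.1%, Wilson interval 64.6 to 76.8), followed by guanine in 22, uracil in 21 and cytosine in 18. Among the 52 23-nt members adenine led in 21 (40.4%, 28.2 to 53.9), cytosine and guanine in 11 each and uracil in 9. The PC 21-nt names of the same table were divided between uracil (43.8%) and adenine (40.8%), and the known 24-nt names started with adenine in 29 of 64 (45.3%, 33.7 to 57.4). The 24-nt interval lay above those of the 3 other sets, although names that share a sequence are not independent. Among the 24-nt members with at least 10 reads in the higher library the adenine share was 77.5% (100 of 129). By reads, adenine-led 24-nt members held 67.1% of the reads of their class in ‘Ant’ and 76.5% in ‘Mix’, and guanine-led members, PC-5p-1579_789 among them, held 23% and 15.5%. For 23 nt, guanine held 79.7% of the reads in ‘Ant’ and 82.7% in ‘Mix’ through PC-5p-377_3235, which left adenine with 11.1% and 9.77%.

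**Figure D1:**
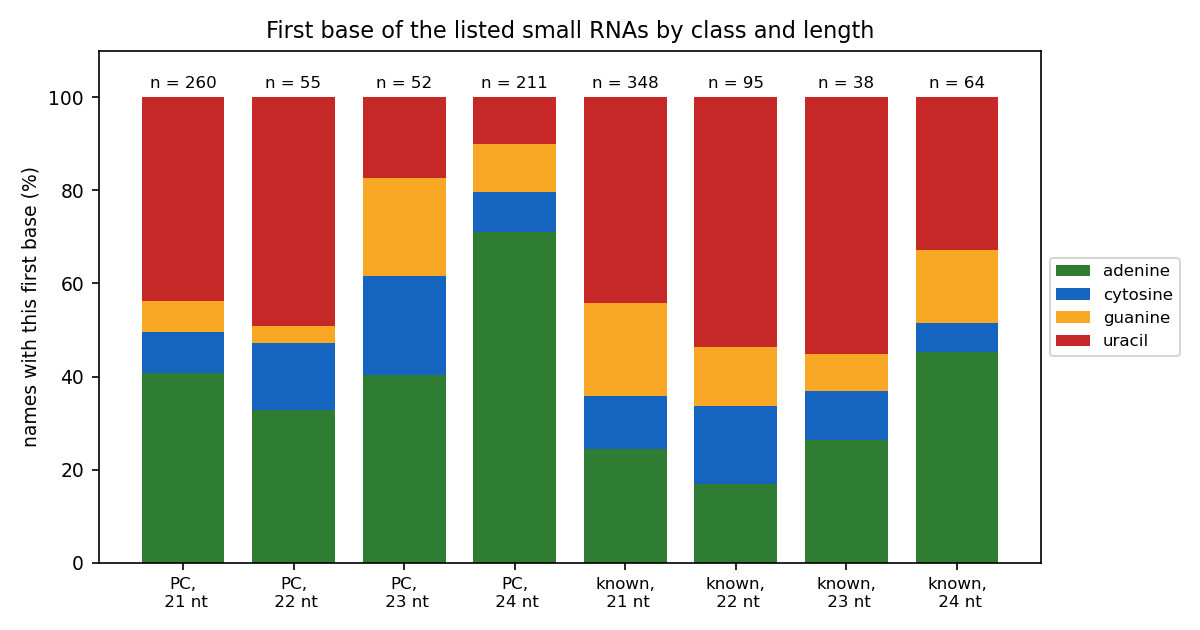
Share of names (%) by first base for PC and known small RNAs of 21 to 24 nt, with the number of names above each bar. Adenine takes 71.1% of the PC 24-nt names and 40.4% of the PC 23-nt names.

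Adenine led 24-nt members with and without a difference between the libraries. Its count was 17 of 27 among those called higher in ‘Ant’, 12 of 17 among those called lower, and 121 of 167 among the rest, and the intervals of these shares overlap. Members were poor in G and C, with a median of 34.8% for 23 nt and 33.3% for 24 nt, close to the 33.3% of the PC 21-nt names and below the 47.6% of the known 21-nt names. The second base of the 24-nt members was adenine in 39.3% and uracil in 37.0%, and cytosine in 5.69%. At the 3′ end the 24-nt members closed with uracil in 47.4%, with cytosine in 33.2% and with guanine in 4.27%. The 23-nt members held uracil at the base before the last in 35 of 52 (67.3%), against 69 of 211 (32.7%) at the same place of the 24-nt members.

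Most members were read only a few times. The median was 8.25 reads in ‘Ant’ and 4.25 in ‘Mix’ for 23 nt, and 10 and 7 for 24 nt, where the estimated counts of the table can hold fractions. A total of 8 members of 23 nt and 16 of 24 nt had under 3 reads in both libraries, and 1 and 5 reached 100 reads in the higher one. Reads were found in both libraries for 43 of the 52 and 195 of the 211 members. The 23-nt members summed to 2516.5 reads in ‘Ant’, 0.187% of the reads on listed sequences, and to 1929.5 in ‘Mix’, 0.138%, a log2 ratio of 0.43 (0.35 to 0.52). The 24-nt members summed to 4088 ‘Ant’ reads (0.304%) and 3256.5 ‘Mix’ reads (0.234%), a log2 ratio of 0.38 (0.31 to 0.44). This direction depends on the denominator: per 100000 valid reads of the same length, a choice added after seeing the data, the 24-nt members held 86.0 reads in ‘Ant’ and 90.3 in ‘Mix’ (log2 ratio -0.07), and the 23-nt members 130.0 and 119.3 (0.12). In whole organs, fewer cells of a type and less RNA per cell cannot be told apart.

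One hairpin carried most of the 23-nt sum, and the 24-nt sum was spread more widely. PC-5p-377_3235 drew 1912 ‘Ant’ and 1483 ‘Mix’ reads, which is 76.0% and 76.9% of all 23-nt reads. Its log2 ratio was 0.32 (0.22 to 0.42), so the libraries differed beyond counting error but by less than the fold that a call needs. PC-5p-1579_789 drew 717 ‘Ant’ and 243 ‘Mix’ reads, a log2 ratio of 1.52 (1.30 to 1.73). PC-3p-2247_578, the opposite arm, had 402 and 278 reads, a log2 ratio of 0.49 (0.26 to 0.71). Together these arms held 27.4% of the 24-nt reads in ‘Ant’ and 16% in ‘Mix’. Without them the log2 ratio of the 24-nt sum was 0.17 (0.09 to 0.24), and -0.0052 when each library was scaled by the study's valid reads.

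**Figure D2:**
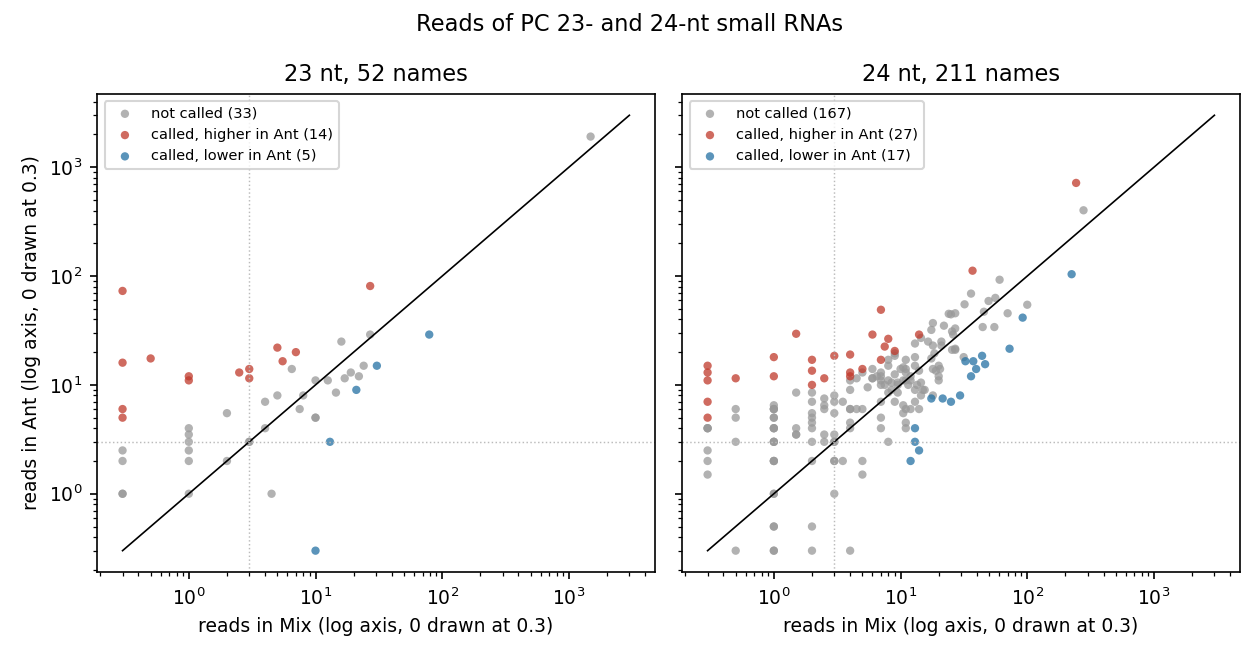
Reads in ‘Ant’ (vertical, log axis) against reads in ‘Mix’ (horizontal, log axis) for the 52 names of 23 nt and the 211 of 24 nt, with 0 drawn at 0.3, the line of equal reads, and dotted lines at 3 reads. Called names are coloured: 14 higher and 5 lower for 23 nt, and 27 higher and 17 lower for 24 nt.

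A name counted as called where its normalized reads differed at a p of 0.05 or less by the chi-square test and by Fisher's exact test (two-sided), with a log2 ratio beyond 1 in either direction. Over all 1220 names 48.0% were called, 27.1% as higher in ‘Ant’ and 20.9% as lower. Of the 23-nt members 19 of 52 were called (36.5%), 14 higher and 5 lower. Of the 24-nt members 44 of 211 were called (20.9%), 27 higher and 17 lower. The PC 21-nt names were called in 130 of 260 (50.0%), 105 of them higher and 25 lower. Low reads limit a call, so shares were also set side by side at like numbers of reads. With at least 10 reads in the higher library, 65.1% of all names were called, as were 17 of 30 members of 23 nt (56.7%), 42 of 129 of 24 nt (32.6%) and 120 of 173 PC 21-nt names (69.4%).

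Narrower bands of reads gave a like picture for 24 nt. At 10 to under 30 reads in the higher library 51.3% of all names were called, against 13 of 25 members of 23 nt (52.0%) and 30 of 97 of 24 nt (30.9%). At 30 to under 100 reads 73.4% of all names were called, 41.2% higher and 32.2% lower, against 9 of 27 members of 24 nt (33.3%), of which 1 was higher and 8 were lower. All 4 members of 23 nt in that band were called, 2 in each direction. The 24-nt shares lay below those of the whole table, and below those of all other names (59.5% and 80.1%), in both bands. The 23-nt share in the lower band was near that of the whole table and below that of all other names, and the upper band holds too few members of 23 nt to be read. These gaps were not tested, since many members share sequence. The known 24-nt names, by comparison, were called in 10 of 24 and 8 of 13 in these bands. Over names with 3 reads or more in 1 library, and with every value under 3 raised to 3, log2 ratios had a median of 0.13 for 44 members of 23 nt (quartiles -0.62 and 1.49) and 0.30 for 195 of 24 nt (-0.41 and 0.92), against 0.22 for all names and 0.95 for PC 21-nt names. Over all 52 members of 23 nt, without the read filter but still with values under 3 raised to 3, the median was -0.046. This is the value that equal reads in both libraries give through the scaling alone. The 8 members of 23 nt with under 3 reads in both libraries take it through the raising. With 10 reads asked of both libraries the calls came to 3 of 12 and 12 of 65, against 56.9% of all names. Under edgeR, with the biological coefficient of variation taken as 0.4, they came to 6 of 52 and 12 of 211, against 31.0% of all names, and none of the 24-nt calls was lower.

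**Figure D3:**
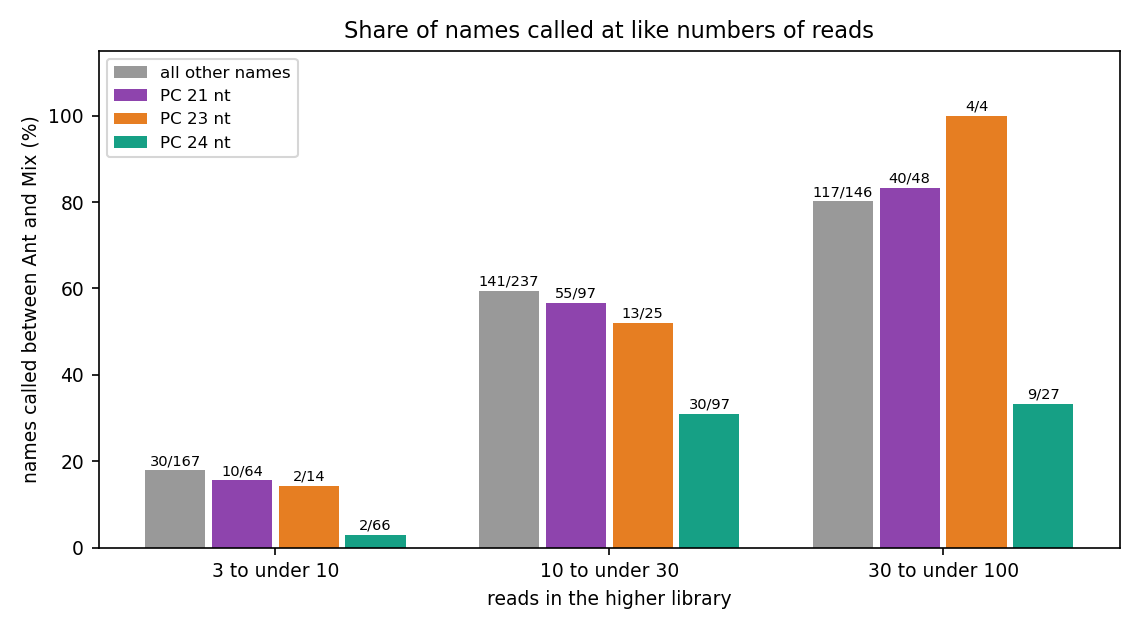
Share of names called between the libraries (%), by the reads in the higher library and by class, with the numbers above the bars. At 10 to under 30 reads 30.9% of the 24-nt names are called, against 52.0% of the 23-nt names and 59.5% of all other names.

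Among the 23-nt members the clearest difference was PC-3p-52581_36 on A10, with 73 ‘Ant’ and 0 ‘Mix’ reads. With the 0 set to 3 reads this is 23.6-fold higher, and the lower limit of its log2 ratio was 4.22. The hairpin at A09:32393882-32393980 was higher in ‘Ant’ on both arms. Its 3p arm PC-3p-45661_42 drew 81 ‘Ant’ and 27 ‘Mix’ reads (log2 ratio 1.54, 0.90 to 2.22), and its 5p arm PC-5p-348025_6 had 22 and 5 (2.09, 0.66 to 3.85). PC-5p-942486_3 drew 16 ‘Ant’ and 0 ‘Mix’ reads, 5.17-fold higher with the 0 set to 3 reads (lower limit of the log2 ratio 1.90). In the other direction, PC-5p-19938_93 drew 29 ‘Ant’ and 79 ‘Mix’ reads (-1.49, -2.16 to -0.86). PC-3p-268374_7 had 15 and 30.5 reads and PC-3p-143783_13 had 9 and 21, and both calls were lost after Benjamini-Hochberg adjustment of Fisher's p over all names. PC-5p-242752_8 was the 1 member of 23 nt listed at 0 in ‘Ant’, with 10 reads in ‘Mix’. With the 0 set to 3 reads it was 3.44-fold lower (upper limit of the log2 ratio -1.21). PC-5p-137349_13, with 29 and 27 reads, was among the most read and was not called.

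Among the 24-nt members PC-3p-323943_6 drew 29.5 ‘Ant’ and 1.5 ‘Mix’ reads, a log2 ratio of 4.26 (1.88 to 6.97). PC-3p-70742_26 had 49 and 7 reads (2.76, 1.61 to 4.15), and PC-5p-276233_7 had 29 and 6 (2.23, 0.93 to 3.79). The hairpin at A05:15945392-15945644 gave PC-5p-74095_25, with 112 ‘Ant’ and 37 ‘Mix’ reads (1.55, 1.0 to 2.13), and PC-3p-76574_24, with 69 and 36 (0.89, 0.29 to 1.52), of which the first was called. PC-5p-356032_6 and PC-5p-299111_7, both on A09, drew 15 and 13 ‘Ant’ reads and no ‘Mix’ reads. With the 0 set to 3 reads they were 4.84-fold and 4.2-fold higher (lower limits of the log2 ratio 1.80 and 1.56). All the members named here except PC-3p-76574_24 were called higher in ‘Ant’.

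Members of 24 nt that were lower in ‘Ant’ were among the better read. PC-3p-8049_203 drew 104 ‘Ant’ and 224 ‘Mix’ reads, a log2 ratio of -1.15 (-1.50 to -0.81). PC-5p-24449_77 had 41.5 and 92 reads (-1.19, -1.74 to -0.64), and PC-5p-31341_61 had 21.5 and 72.5 (-1.80, -2.52 to -1.05). Of the less read members, PC-3p-231633_8 had 8 and 29.5 reads (-1.93, -3.29 to -0.79) and PC-5p-615496_4 had 7 and 25 (-1.88, -3.34 to -0.63). PC-5p-70136_27, with 54.5 reads in ‘Ant’ and 100 in ‘Mix’, had a log2 ratio of -0.92 (-1.44 to -0.44) and stayed just inside the fold threshold. The 24-nt members listed at 0 numbered 11 in ‘Mix’, 5 of them called, and 5 in ‘Ant’, none of them called. Over all 1220 names, 106 were at 0 in ‘Mix’, 55 of them called, and 82 in ‘Ant’, 33 of them called.

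The 263 members came from 198 listed hairpins, 73 of which had a member on each arm. Another 77 hairpins had 1 member with a name of another length on the other arm, in 54 cases of 21 nt and in 16 of 22 nt, and 48 had 1 member alone. Within the 73 pairs both arms were called alike in 2, 1 arm in 24, and none in 47, and no pair was called in opposite directions. Few such pairs could arise, since 15.6% of the members were called higher and 8.37% lower, against 27.1% and 20.9% of all names. Ratios of 2 arms could still oppose, as the log2 ratios of PC-5p-127541_14 (0.57) and PC-3p-702689_3 (-1.54) did. Besides the A09 pair above, the pair called alike was PC-5p-3551425_1 (24 nt), with 2 and 12 reads, and PC-3p-1201592_2 (23 nt), with 3 and 13, on A03, both lower in ‘Ant’ (log2 ratios -2.63, -5.83 to -0.46, and -2.16, -4.61 to -0.30). Of these pairs 23 had at least 20 reads in each library, and in 4 the share of the 5p arm differed with Wilson intervals that did not overlap. On the A03 hairpin the 5p arm took 64.1% of the reads in ‘Ant’ (61.2 to 66.8) and 46.6% in ‘Mix’ (42.4 to 50.9). The arms of the other 3 hairpins are given with their seeds in capitals, since their small RNAs are close to complementary.
PC-5p-24449_77: gAGTAATGaacaaaaaataaaagg
PC-3p-122013_15: cTTTTATTttttgttcatcactcc
PC-5p-127541_14: aTTCCCACtggacaagctgtcacc
PC-3p-702689_3: cAACTTGTcctgtgggaatgatgt
PC-5p-196276_10: aTTTGCTCcaatgtatgcctctat
PC-3p-49191_39: aGAGGCATacattagagcaaatcc

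In the pair at A01:7096209-7096421, PC-5p-24449_77 made up 62.4% of the reads in ‘Ant’ (50.7 to 73.3) and 84.8% in ‘Mix’ (77.3 to 90.7). In the pair at A02:3339286-3339540, PC-5p-127541_14 with 92.5 and 60.5 reads stood beside PC-3p-702689_3 with 14 and 39.5, so that the 5p share was 86.9% in ‘Ant’ (79.0 to 92.0) and 60.5% in ‘Mix’ (50.2 to 69.1). In the pair at A09:39249814-39250044, PC-5p-196276_10 drew 26.5 ‘Ant’ and 8 ‘Mix’ reads, and PC-3p-49191_39 had 34 and 55. The 5p share there was 43.8% in ‘Ant’ (31.6 to 55.9) and 12.7% in ‘Mix’ (6.58 to 23.1). The arm with more reads was the same in both libraries on the A01, A02 and A09 hairpins. On the A03 hairpin the ‘Mix’ interval, and on the A09 hairpin the ‘Ant’ interval, includes equal reads on both arms.

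Groups of members that share sequence differed between the libraries to unlike degrees. The largest group summed to 576 ‘Ant’ and 569 ‘Mix’ reads, a log2 ratio of -0.03, with 1 of its 36 members called higher and 2 lower. Its members were even on the arms, 18 on 5p and 18 on 3p, and 29 of the 36 started with adenine. PC-3p-101185_18, its most read member in ‘Ant’, drew 63 ‘Ant’ and 56 ‘Mix’ reads. The group that holds GGATAAATC summed to 68.5 ‘Ant’ and 16.5 ‘Mix’ reads, a log2 ratio of 2.01. All 7 of its members had more reads in ‘Ant’, with 2 of them called higher, against 27.1% called higher and 20.9% lower over all 1220 names. The called members were PC-5p-276233_7 (29 and 6 reads) and PC-5p-370917_5 (14 and 3), and the others had 3.5 to 6.5 reads in ‘Ant’. In the second group 13 members summed to 153.5 and 172.5 reads, with 2 called in each direction, and in the third 10 members with a median MFEI of 2.3 summed to 79 and 59.5. A group of 6 members that includes PC-3p-8049_203 summed to 201.5 and 378 reads, a log2 ratio of -0.95, with 2 called lower. With stretches of 10 bases in place of 12, the largest group held 114 members, and with 14 it held 21.

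The ends of the duplexes were spread widely. Where both arms of a hairpin were members, the arms were laid on the predicted fold and the 3′ overhang at each end was measured. Of the 73 pairs 6 (8.22%) had the 2-nt overhang at both ends that precise cutting leaves, and 20 (27.4%) were within 1 nt of it at both ends. Arms of unequal length can hardly reach it at both ends, and among the 49 pairs with 24 nt on both arms 6 (12.2%) had it and 14 (28.6%) were within 1 nt. The 84 pairs of PC 21-nt arms had it in 26 (31.0%) and were within 1 nt in 60 (71.4%), and the 246 pairs of known arms, of any length, had it in 106 (43.1%). Single ends of member duplexes ranged from -6 to 7 nt, with 18 of 146 (12.3%) at 2 nt. When pairs with a base that differed from the hairpin were left out, 5 of 38 pairs (13.2%) had it.

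**Figure D4:**
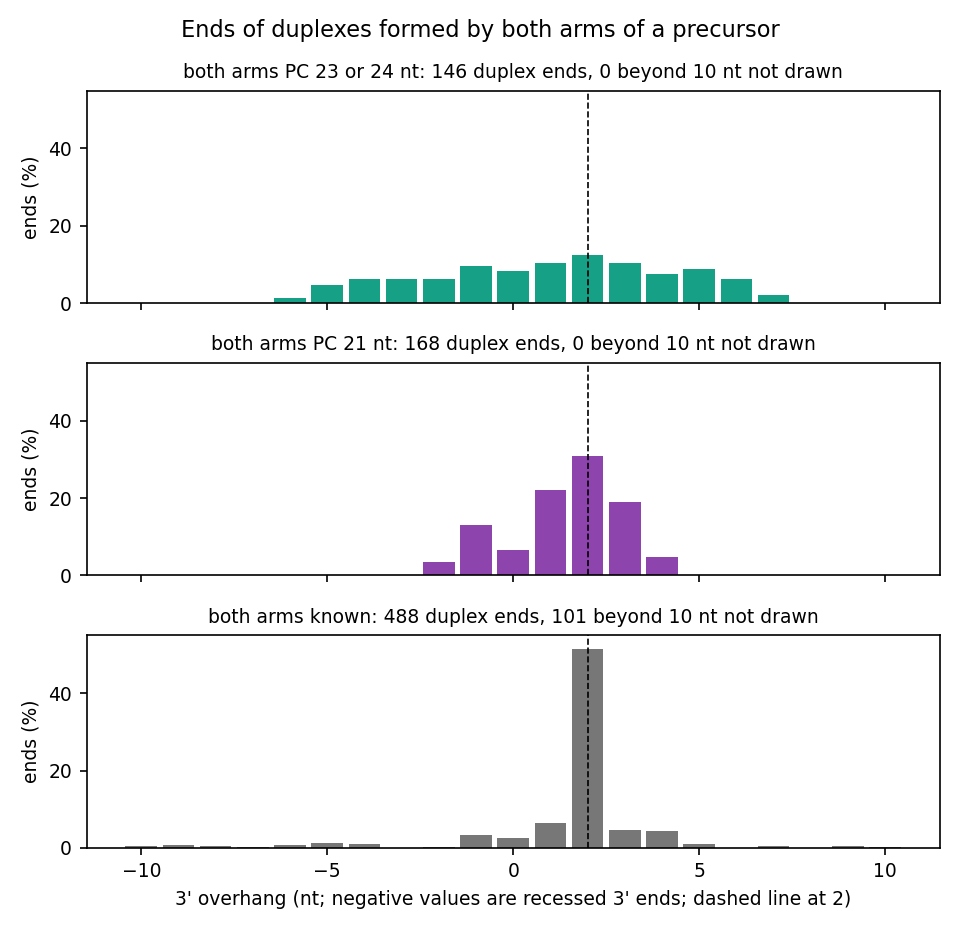
Share of duplex ends (%) by 3′ overhang in nt for hairpins with both arms PC 23 or 24 nt, both arms PC 21 nt, and both arms known. The ends of the 23- or 24-nt arms spread from -6 to 7 nt with 12.3% at 2 nt, against 31.0% and 51.4% in the other panels, and 101 of the 488 known ends lie beyond 10 nt and are not drawn.

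The 6 precise pairs were all of 24 nt on both arms. They include the A03 hairpin with the most reads and the A09 pair of PC-5p-196276_10 and PC-3p-49191_39. The pair of PC-5p-7024732_1, with 4 and 7 reads in ‘Ant’ and ‘Mix’, and PC-3p-160875_11, with 7.5 and 17.5, was on A04, and its 3p arm was called lower. The pair of PC-5p-340011_6, with 11 and 20 reads, and PC-3p-337124_6, with 6 and 4, and that of PC-5p-2529108_2, with 6 and 5, and PC-3p-687239_3, with 3 and 3, were both on A09. The pair of PC-5p-1214534_2 and PC-3p-303041_6 had 1 to 4 reads an arm and library.

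The hairpins of the members were long, rich in A and U and strongly folded. The median hairpin was 147 nt for 23 nt and 149 nt for 24 nt, as it was for PC 21-nt names (147 nt), and longer than the 130 nt of known 21-nt names. Median GC of the precursor was 31.4% for 23 nt and 29.9% for 24 nt, 30.7% for PC 21-nt names and 39.8% for known 21-nt names. The folding energy had medians of -80.8 and -81.3 kcal/mol for 23 and 24 nt, against -77.8 and -56.6 kcal/mol in the same comparison sets. The minimal folding energy index (MFEI), which is the folding energy scaled by precursor length and GC percent, had medians of 1.4 and 1.5 for the members, 1.5 for PC 21-nt names and 1.05 for known 21-nt names. Known 24-nt names had hairpins like those of the members, with a median of 149 nt, 32.2% GC and an MFEI of 1.62. The lowest member MFEI was 0.9, as it was for PC 21-nt names, and 5 of 52 and 33 of 211 members reached 2. PC names are listed only with a predicted hairpin, whereas the MFEI of known 21-nt names went down to 0. Differences from known names in folding and pairing thus cannot be told apart from this entry rule.

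Within the fold, the members were paired at most of their bases, with medians of 95.7% for 23 nt and 91.7% for 24 nt, against 95.2% for PC 21-nt and 85.7% for known 21-nt names. All bases were paired in 14 members of 23 nt and 52 of 24 nt. PC-5p-1608813_2, with 6 reads in ‘Ant’ and 1 in ‘Mix’, had the highest MFEI of the 24-nt members, 2.8 at 13.4% GC, and PC-3p-752136_3, with 3 reads in each library, that of the 23-nt members, 2.6. Called and other members overlapped in hairpin measures. The 24-nt members called higher, called lower and not called had median MFEI of 1.6, 1.4 and 1.4 and median GC of 29.3%, 34% and 29.9%, with median folding energies of -88.1, -97.3 and -80.4 kcal/mol. By their medians the members thus lay near the PC 21-nt names in hairpin length, GC and MFEI, and away from them in first base (24 nt) and duplex ends.

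**Figure D5:**
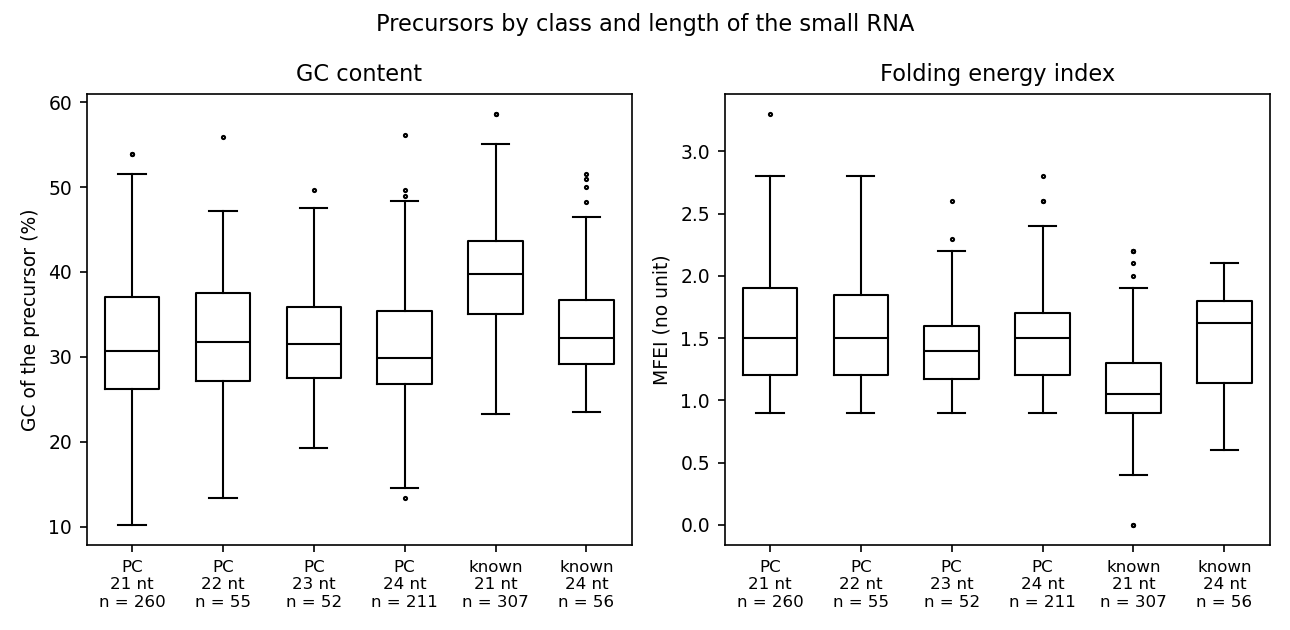
GC of the precursor (%) and MFEI (no unit) for PC and known names with a listed precursor, by length. Boxes span the quartiles with the median as a line, whiskers reach the last value within 1.5 box lengths, and points lie beyond. The 23- and 24-nt boxes lie with those of PC 21 nt, at a median GC of 31.4% and 29.9%, below the 39.8% of known 21-nt names.

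Members were listed about evenly on the arms, with 28 of 23 nt on the 5p arm and 24 on the 3p arm, and 104 and 107 of 24 nt. In part this follows from the 73 of 198 hairpins that have a member on each arm. Chromosome A09 held 45 of the 211 24-nt members (21.3%), the most, and 11 of the 52 23-nt members (21.2%), as many as A03, against 38 of 260 PC 21-nt names (14.6%). A03 held 26 members of 24 nt, A07 held 25 and 9, while A08 held 9 and 1. Few hairpins lay close together: 16 of the 198 were within 10000 bases of another, in 8 pairs that hold 20 members, and 7 of those pairs overlapped in the listed positions, always on opposite strands and in 2 cases as the 2 records of 1 name. One overlapping pair lay at A09:33930049-33930265 on the plus strand and A09:33930077-33930314 on the minus strand, and its most read members were PC-5p-31341_61, called lower, and PC-5p-137349_13, not called. At 8 members the table gave 2 hairpins for 1 name, as for PC-3p-974836_3, which drew 13.5 ‘Ant’ and 2 ‘Mix’ reads (2.71, 0.64 to 5.94).

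Some members overlap the known miRNA names of the same table. A stretch of 12 bases was shared with a known name by 7 of the 52 members of 23 nt and 41 of the 211 of 24 nt, in 32 cases with a name of miR9563, against 28 of 260 PC 21-nt names, 11 of them with miR9563. The miR9563 names, of which 44 of 79 are of 23 or 24 nt, summed to 2288.5 reads in ‘Ant’ and 1452 in ‘Mix’. Of the 36 members of the largest group 30 shared such a stretch with miR9563. PC-3p-96400_19, named here for its match to bra-MIR9563a-p5_1 and after its values were seen, drew 22.5 ‘Ant’ and 7.5 ‘Mix’ reads and was called higher, while bra-MIR9563a-p5_1 had 9 and 36. On the hairpins themselves, 5 members of 23 nt and 23 of 24 nt came from a precursor that shares 40 bases with that of a known name. Of the 5 members that shared 21 bases or more with a known name outside miR9563, the 2 most read are given with the shared stretch in capitals.
PC-3p-2247_578: ACAAAGTTTTATACTGATAATCtg
ath-miR4245_R+1_1ss18CT: ACAAAGTTTTATACTGATAATC
PC-3p-70742_26: ttgGCAAGTTGACTTTGGCTCTGT
ath-MIR169e-p3_2: GCAAGTTGACTTTGGCTCTGT

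PC-3p-2247_578, on the most read hairpin, shares 22 bases with ath-miR4245_R+1_1ss18CT, which drew 63 ‘Ant’ and 15 ‘Mix’ reads. That hairpin overlaps the precursor listed for the known name and holds the known sequence. PC-3p-70742_26 holds the whole of ath-MIR169e-p3_2 with 3 more bases at its 5′ end, and the table lists both at A08:11928572-11928752. The shorter name drew 123.5 ‘Ant’ and 143.5 ‘Mix’ reads, whereas the member had 49 and 7. The miR169 family is known in Arabidopsis for targeting subunits of the transcription factor NF-Y. Whether these 3p sequences have such a target was not tested. Of the other 3, PC-3p-1019970_3, with 17 and 8 reads, shares 22 bases with a miR156 name. PC-3p-909008_3, with 6 ‘Ant’ reads and no ‘Mix’ reads, shares 22 with the reverse complement of a miR6034 name, and PC-3p-303041_6, with 4 reads in each library, 21 with that of bra-miR391-5p. None of the 11 PC names in the study's regulatory network had 23 or 24 nt.

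The listed sequence of a member did not always lie in its own listed hairpin. It differed at 1 base in 94 of 271 records, in 24 of 53 for 23 nt and in 70 of 218 for 24 nt. By strand, this was so for 80 of 133 minus-strand records (60.2%) and 14 of 138 plus-strand records (10.1%). Among the PC names of other lengths it was so for 73 of 181 minus-strand and 29 of 199 plus-strand records. Without the members concerned, 11 of 28 members of 23 nt were called, 6 higher and 5 lower, and 32 of 143 of 24 nt, of which 20 were higher, against 50.2% of all names left. The part that these differences have in the reads was not tested.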

How the data were processed

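Small RNA of 1 ‘Ant’ and 1 ‘Mix’ library was prepared with a TruSeq small RNA kit, from 1 µg of total RNA by the methods of the study and 5 µg by the labels. After trimming adapters and discarding junk and sequences of common RNA families, the authors retained lengths of 18 to 25 nt and searched miRBase 21.0 precursors and the genome. The aligner and build are not given in the sources used here. The deposited reads are estimated counts, fractional for 71 members in ‘Ant’ and 68 in ‘Mix’. The authors' normalized signal is the reads multiplied by 1 factor per library, 0.984 for ‘Ant’ and 1.02 for ‘Mix’. The authors also deposited the GC percent of each precursor and its folding energy and MFEI, which are taken as scores.

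Names were used once, with hairpin values as the median over records. Each name was tested on rounded normalized values against the totals over all 1220 names. Log2 ratios have exact binomial intervals. Values under 3 reads were set to 3 for medians and for the folds of names at 0. Those folds leave out counting error in the other library. Members were named by rule, for each length: the 5 most read in each library, the 3 called names with the greatest rise and the 3 with the greatest fall that had 20 reads or more in the higher library, the 2 most read called names at 0 in each library, the extremes of MFEI, names with most records, and pairs of arms with at least 10 reads an arm in 1 library. Others were chosen after their values were seen. The members, lists and tests were chosen with earlier results of these data known. The groups, duplex ends and matches to known names were added after the data were seen. The call rule was tested on simulated reads with 200 changed names. Alternatives covered tests, scaling, read minimums, counting units, thresholds and assumed spreads, with edgeR on rounded reads. R 4.3.3 with edgeR 4.0.16 was used beside Python 3.11.15 (numpy 2.4.6, pandas 2.3.3, scipy 1.17.1, matplotlib 3.10.9). Other RNA types and the table of reference genes were not used here.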

Additional observations from a re-analysis of the deposited data

How the results depend on the processing

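Of the results on calls, medians, sums, first bases, hairpins and positions, 75 values under the alternatives stayed within the limits set for a like value, 25 moved and 1 reversed. Only a sum could be scored as reversed. A median that changed sign, as that of 23 nt did, was scored as moved. No paired analysis was possible because each group has 1 library, and no replicate could be left out. The 23-nt and 24-nt calls, 19 and 44, became 3 and 12 where both libraries had 10 reads or more (56.9% of all names called), 12 and 20 at an absolute log2 ratio above 2 (35.6%), 7 and 21 with a pseudocount of 10 (36.8%), 32 and 103 at the fold alone (67.3%), and 6 and 12 under edgeR with a biological coefficient of variation taken as 0.4 (31.0%). The 23-nt calls were 11 without members that differ from their hairpin (50.2% of all names), a choice added after seeing the data. The median log2 ratio of 23 nt was -0.046 without a read filter and, apart from that, also -0.046 without those members. Equal reads in both libraries, or values raised to 3 reads in both, give this value through the scaling alone. By the study's valid reads the log2 ratios of the sums were 0.26 for 23 nt and 0.20 for 24 nt, and by valid reads of the same length, also added later, 0.12 and -0.071, which turns the 24-nt direction. The 24-nt sum gave 0.20 without the 3 most read members of each library and 0.17 without the most read hairpin. The adenine share of 23 nt fell to 11.1% and 9.77% when weighted by the reads of ‘Ant’ and ‘Mix’, and that of 24 nt was 77.5% at 10 reads. Median MFEI recomputed with hairpin length was 1.73 and 1.87, and within 100000 bases 11 and 44 members had a neighbour. Scaling by valid reads, TMM and distinct reads shifted the median of all names by -0.08, -0.05 and 0.10 in log2.

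Of 70 named members with over 3 reads, 28 were called and 8 stayed called under every alternative. Reversals occurred at ratios near 0: PC-5p-137349_13 was at -0.020 by valid reads, PC-5p-124861_15 at -0.045 under edgeR with either assumed spread, and PC-5p-583243_4 at 0.050 when scaled by distinct reads. The cause of these changes was not tested. Depth limits the members, since 104 of the 263 had under 10 reads in both libraries.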
